A study of Mus musculus with 12 samples.

Results

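Of the 32285 genes counted in nuclei of mouse liver, 9 that act at entry into the cell cycle or mark proliferating cells were followed from tissue into culture. They were Myc, the cyclin genes Ccnd1, Ccnd2, Ccnd3, Ccne1 and Ccne2, the kinase gene Cdk6, and Mki67 and Top2a, and they were named as a list, with earlier results of these data known, and not picked by a threshold on their values. For each gene, the spliced, unspliced and ambiguous UMIs (unique molecular identifiers, each marking 1 captured RNA molecule) were summed per sample and class of nuclei. The study compared 3 sample types from each of 8 male, chow-fed wild-type mice of 10 to 12 weeks, given as C57BL6J in the labels and as C57BL/6NTac in the study's methods. Liver (L) was a lobe tied off and frozen after perfusion, so it was perfused tissue. Cell Suspension (CS) was the freshly isolated, low-speed pellet of the collagenase-digested liver. It was strained, washed in serum-containing plating medium and counted for viability before freezing, without culture. Primary Hepatocytes (PH) were cells of that suspension cultured for 24 hours on collagen, in serum-containing plating medium and then in low-serum medium with insulin and dexamethasone. No group was cultured without these hormones and no time point other than 24 hours was taken. PH cells were also detached with trypsin-EDTA and pelleted before freezing, and no such detachment is described for L or CS. Plating, medium, detachment and time therefore cannot be told apart.

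Cells leave quiescence in G1 when growth signals raise MYC, a transcription factor for growth and ribosome genes, and the D-type cyclins, which bind CDK4 or CDK6 to start phosphorylating the retinoblastoma protein. That phosphorylation frees E2F factors, which switch on the E-type cyclins and the genes of DNA replication, and E cyclins then drive CDK2 at the start of S phase. MKI67 coats chromosomes and is the usual label of cycling cells, and TOP2A untangles DNA in S phase, G2 and mitosis. Adult hepatocytes are quiescent but can re-enter the cycle, as after partial removal of the liver, where early response genes such as Myc come on before cyclin D1.

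The authors' table held 53467 nuclei in 24 samples, mixed as 6 pools of 4 hashtagged samples, with 2709659 to 32104065 UMIs and a median of 2002 to 9923 UMIs per nucleus in a sample. Hepatocyte nuclei numbered 15000 in Liver, 12634 in Cell Suspension and 14833 in culture, and their sums held 2065229 to 29018248 UMIs per sample. In culture, hepatocyte was the default name of clusters not marked as endothelial or stellate, and no level of hepatocyte markers was required. The summed level of 10 hepatocyte markers in hepatocyte nuclei was 11212 to 16735 UMIs per 1000000 UMIs (CPM) in Liver, 15454 to 21031 in Cell Suspension and 2339 to 6758 in culture. Stellate cell markers summed to 19.9 to 47.0 CPM in hepatocyte nuclei of Liver and to 78.9 to 649 CPM in those of culture, and the 10 endothelial markers to 35.1 to 57.8 and 82.6 to 156 CPM. Leukocyte markers summed to 14.3 to 35.3 CPM in L and 36.6 to 57.7 CPM in PH, again without overlap, while Kupffer cell markers did overlap (9.30 to 20.9 and 10.0 to 20.9 CPM). Their part in the results below was not tested. Cluster 8, with 166, 705 and 1450 nuclei in the 3 sample types, was shallow and was left out of the hepatocytes. Of the barcodes, 337 occurred in more than 1 pool. In sums over nuclei, fewer transcribing nuclei and less RNA per nucleus cannot be told apart.

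In hepatocyte nuclei, Myc, Mki67, Ccne2 and Cdk6 rose in culture, whereas the 3 D cyclins, Ccne1 and Top2a did not pass the test against Liver. Thus 4 of the 9 genes were higher and 0 lower in PH than in L, where 27.4% of the 26521 genes tested were called higher and 26.7% lower (edgeR quasi-likelihood test, Benjamini-Hochberg adjusted p under 0.05). None was lower at an unadjusted edgeR p under 0.05 or by DESeq2 (0 of 9), whereas spliced UMIs alone called Ccnd1 lower. Relative to CS, 4 of 9 were again higher, Myc, Mki67, Ccne2 and Cdk6, and Ccnd1 was lower (27.6% of genes called higher and 24.0% lower). Between CS and L, 2 of 9 were higher and 1 lower (7.69% and 13.8% of genes). For 4 of 9 genes the PH samples did not overlap with the L samples, as for 30.7% of genes, and for 4 of 9 not with the CS samples, as for 27.3%. Both PH over L and CS over L use the same L samples. CPM of single genes below, unless given as CPM of all UMIs, are scaled with TMM factors, which assume that most genes do not change. Shares of thinned nuclei, summed CPM of lists and CPM of all UMIs are relative to total UMIs, without these factors. Scaled by total UMIs alone, a setting chosen after seeing the data, the median log2 change of all genes in hepatocyte nuclei was 0.57 in place of 0.04 for PH over L, 0.69 in place of 0.01 for PH over CS and -0.14 in place of 0.01 for CS over L. The genes called were then 12161 higher and 4246 lower for PH over L, in place of 7271 and 7077. They were 12563 and 3174 for PH over CS, in place of 7320 and 6366. For CS over L they were 1274 and 5622, in place of 2040 and 3658, and 2632 and 2953 with RLE scaling. Myc, Mki67, Ccne2 and Cdk6 were called higher in PH over L and PH over CS under either scaling.

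**Figure D1:**
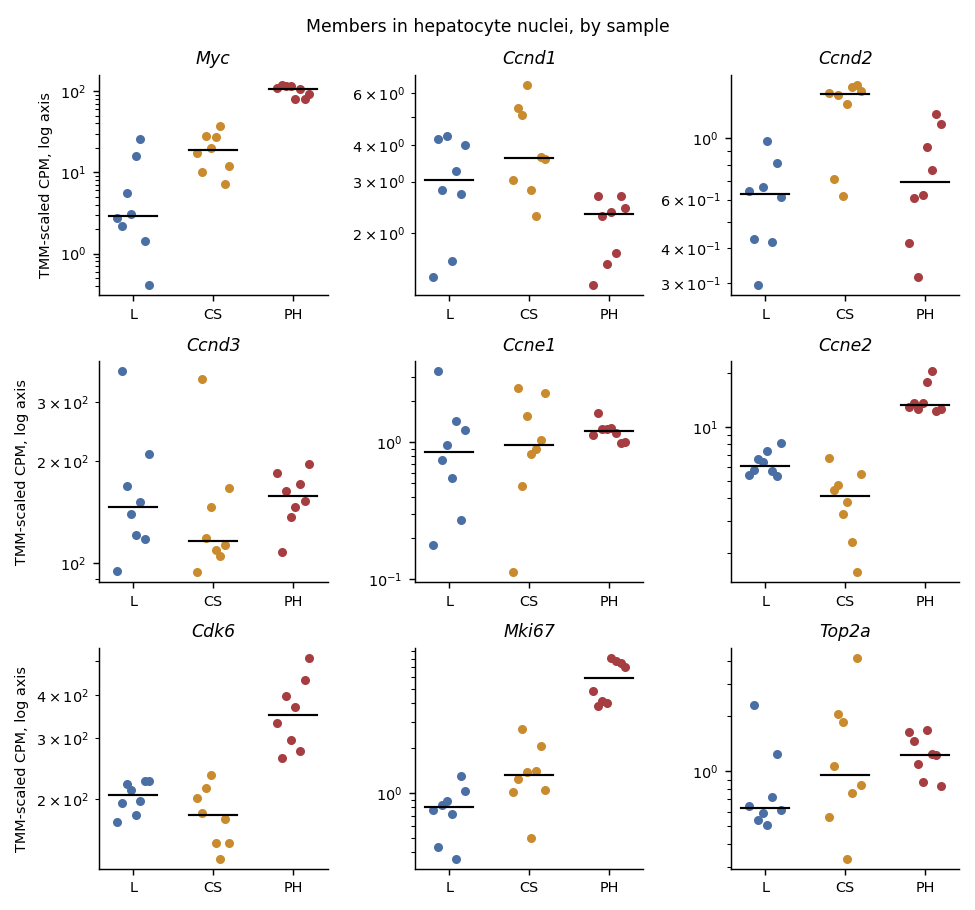
Levels of the 9 genes in hepatocyte nuclei, in TMM-scaled CPM on a log axis with its own range per gene. Each point is 1 sample (8 mice per sample type) and each bar the median. Myc, Ccne2, Cdk6 and Mki67 have all 8 PH points above all L and CS points, and the other genes overlap.

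Myc (chr15:61985391-61990374, plus strand, GRCm38) changed most. In hepatocyte nuclei it stood at 0.410 to 25.6 CPM in Liver (median 2.91), 7.28 to 37.1 CPM in Cell Suspension (median 18.6) and 80.4 to 120 CPM in culture (median 107). Every cultured sample lay above every other sample, and in each of the 8 mice CS lay above L. Liver was uneven, with mice 5 and 6 at 15.7 and 25.6 CPM, inside the CS range, and the other 6 between 0.410 and 5.56 CPM. The log2 fold change was 3.80 (SE 0.48) for PH over L, with an adjusted p of 5.52e-08, and 2.33 (SE 0.46) for PH over CS, with an adjusted p of 6.48e-05 (edgeR). For CS over L it was 1.48 (SE 0.46), with an edgeR adjusted p of 0.0194. That last call was lost without mouse 1, 3 or 4 (log2 fold changes of 1.38, 1.34 and 1.39) and with unspliced UMIs alone (0.90). PH and L shared only pools 2 and 5, where the ratio of mean Myc levels was 37.7 and 6.59.

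Myc RNA was also found in many more nuclei. Thinned to 1000 UMIs each, 12.4% of cultured hepatocyte nuclei held a Myc UMI, against 2.09% in CS and 0.719% in L, and these shares ranged from 9.30% to 15.2%, 0.627% to 3.69% and 0.0217% to 2.41% over samples. Without thinning they were 49.4%, 7.28% and 5.32%, at median depths of 6419, 3643 and 7696 UMIs. No class of nuclei was set as lacking the gene, so the part of free RNA in these shares was not tested. The rise was spread over the cultured clusters: the median level by sample was 127 to 164 CPM of all UMIs in clusters 0, 1, 14 and 17, which hold nearly all cultured hepatocyte nuclei. Spliced UMIs made up 42.4% of Myc UMIs in L (95% exact binomial interval 39.3% to 45.4%), 62.3% in CS (59.4% to 65.1%) and 52.0% in PH (51.1% to 52.8%). These intervals cover counting error only.

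Of the D-type cyclins, which start G1, Ccnd1 was lower in PH than in CS and Ccnd2 higher in CS than in L, and Ccnd3 passed the test in none of the 3 comparisons in hepatocyte nuclei. Ccnd1 (chr7:144929931-144939925, minus strand), the D cyclin best known from liver regeneration, was at 1.41 to 4.29 CPM in L (median 3.03), 2.29 to 6.44 in CS (median 3.61) and 1.33 to 2.69 in PH (median 2.33). The 3 ranges overlap, with 4 of 8 cultured samples under all CS samples. It fell by 0.94 on the log2 scale (SE 0.24) for PH over CS, with an edgeR adjusted p of 1.49e-03, and was lower in 8 of 8 mice. Against L the log2 difference was -0.48 (SE 0.23, edgeR adjusted p 0.0871), and it passed the test with spliced UMIs alone (-0.60) or without mouse 5 (-0.61). By total UMIs alone the call for PH over CS was lost (-0.23), and the difference for PH over L, not called in either case, turned to 0.05.

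Ccnd2 (chr6:127125162-127152193, minus strand) was at 0.295 to 0.976 CPM in L (median 0.631), 0.620 to 1.56 in CS (median 1.44) and 0.315 to 1.23 in PH (median 0.697). CS was higher than L in 7 of 8 mice, and 6 of 8 CS samples lay above all L samples. That difference was 0.95 on the log2 scale (SE 0.30, edgeR adjusted p 0.0232). The call rests on 144 UMIs in all and was lost without mouse 1, 3, 6 or 8 (0.79 to 0.91) with the pool as covariate (0.82), with spliced or unspliced UMIs alone (0.47 and 0.36) and at equal depth (0.90). PH over CS was -0.68 (SE 0.29, edgeR adjusted p 0.0541), and with the mouse as a block, which pairs samples of 1 liver, it was -0.80 and passed, as it did with filterByExpr (-0.69) and without mouse 4 or 7 (-0.75 and -0.79). By total UMIs alone PH over L was 0.82 and passed the test, whereas PH over CS at 0.01 and CS over L at 0.81 did not.

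Ccnd3 (chr17:47505051-47599691, plus strand) had 95 to 370 CPM in L (median 146), 94.2 to 351 in CS (median 116) and 108 to 197 in PH (median 158). Mouse 2 was the highest in both L and CS but the lowest in PH, and the ranges overlap throughout. The log2 differences were -0.13 (SE 0.25) for PH over L and 0.06 (SE 0.25) for PH over CS, neither passing the test (edgeR adjusted p 0.709 and 0.857). Without mouse 2, PH over CS was 0.48 and passed. By total UMIs alone it was 0.72 and also passed, and PH over L turned to 0.38, which did not. Almost all of these UMIs were intronic: 94.8% in L, 94.9% in CS and 95% in PH were unspliced, and 0.848% to 1.00% were spliced. The gene spans 94641 bases and overlaps Bysl on the opposite strand, and whether reads were counted by strand is not given in the sources used here. Genes on the opposite strand also overlap Ccnd1 (LTO1) and Ccnd2 (Gm43126 and 9330179D12Rik).

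Cdk6 (chr5:3341485-3531008, plus strand), a catalytic partner of the D cyclins, rose in culture. It was at 171 to 225 CPM in L (median 205), 134 to 235 in CS (median 179) and 262 to 510 in PH (median 350). All cultured samples lay above all others. Culture differed by a log2 fold change of 0.83 (SE 0.14) over L and 1.00 (SE 0.14) over CS, with edgeR adjusted p of 5.90e-06 and 3.05e-07. Unspliced UMIs were 84.1% of Cdk6 UMIs in L and 87.2% in PH. With spliced UMIs alone, PH over L was 0.23 and did not pass the test, PH over CS was 0.79 and passed, and CS over L, at -0.17 with all UMIs, was -0.56 and passed, as it did by total UMIs alone (-0.33). Antisense genes Gm17590 and Gm42435 overlap Cdk6, with the same limit as for Ccnd3. Within pools 2 and 5 the PH to L ratio was 1.39 and 2.52, and among cultured clusters the median ranged from 113 CPM of all UMIs in cluster 17 to 708 in cluster 0.

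Of the E-type cyclins, which activate CDK2 at the start of S phase, Ccne2 rose and Ccne1 did not pass the test. Ccne2 (chr4:11191351-11204779, plus strand) was at 5.32 to 8.10 CPM in L (median 6.07), 1.56 to 6.73 in CS (median 4.13) and 12.3 to 20.4 in PH (median 13.2). All cultured samples lay above the others, and 6 of 8 CS samples lay below all L samples. Ccne2 overlaps Ints8 on the opposite strand, so reads of Ints8 cannot be told apart from its own if strand was not used. The log2 fold change for PH over L was 1.19 (SE 0.17), with an edgeR adjusted p of 2.76e-07, and for PH over CS 1.79 (SE 0.18), with 7.78e-10. For CS over L it fell by 0.60 (SE 0.19, edgeR adjusted p 0.0181), a call lost without mouse 4 or 5 (-0.52 and -0.54), with spliced UMIs alone (-0.62) and at equal depth (-0.59). Thinned to 1000 UMIs, 0.526% of L, 0.328% of CS and 1.96% of PH hepatocyte nuclei held a Ccne2 UMI. These shares are relative to total UMIs and not to the TMM scale of the fold changes. Ccne1 (chr7:38097984-38107534, minus strand) was at 0.177 to 3.32 CPM in L, 0.112 to 2.49 in CS and 0.993 to 1.64 in PH, with medians of 0.850, 0.965 and 1.22. These ranges overlap, and PH over L was 0.35 (SE 0.39, edgeR adjusted p 0.484).

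Mki67 (chr7:135689784-135716361, minus strand) rose and Top2a (chr11:98992943-99024189, minus strand) did not pass the test. Mki67 was at 0.362 to 1.30 CPM in L (median 0.801), 0.497 to 2.69 in CS (median 1.32) and 3.83 to 8.04 in PH (median 5.95). All 8 cultured samples lay above the other 16. The log2 fold change was 2.86 (SE 0.25) over L and 2.10 (SE 0.26) over CS, with edgeR adjusted p of 1.84e-11 and 3.68e-08. Of CS over L, 0.76 (SE 0.30) had an edgeR adjusted p of 0.0717, and with the mouse as a block it was 0.87 and passed, as it did with DESeq2, RLE scaling and filterByExpr (0.84 to 0.86) and at equal depth (1.60). Within pools 2 and 5 the PH to L ratio of Mki67 was 4.51 and 7.80. Top2a was at 0.509 to 2.31 CPM in L (median 0.631), 0.331 to 4.16 in CS (median 0.955) and 0.832 to 1.69 in PH (median 1.23). Its ranges overlap, and PH over L was 0.62 (SE 0.32, edgeR adjusted p 0.108), which passed without mouse 2 (0.90), with unspliced UMIs alone (1.15) and scaled by total UMIs alone (1.13).

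Mki67 and Top2a are usually transcribed together in G2 and mitosis, through promoter elements that include the cell cycle homology region. Outside culture, Mki67 and Top2a were found together in many nuclei with 2 or more Mki67 UMIs. Among all hepatocyte nuclei with Mki67, Top2a was found in 3 of 93 in L, 7 of 48 in CS and 9 of 627 in PH. The 250 bases before each RefSeq transcription start (GRCm38.p6) are shown because these genes were called differently in cultured hepatocyte nuclei. Both lie on the minus strand and are written 5′ to 3′ with the letters TTTGAA, or TTCAAA on the other strand, in capitals. The set of RefSeq promoters used here held 5 of the 9 genes, Ccnd3, Ccne1, Cdk6, Mki67 and Top2a. The absence of the others is a limit of that set.
Mki67 promoter, chr7:135716380-135716629: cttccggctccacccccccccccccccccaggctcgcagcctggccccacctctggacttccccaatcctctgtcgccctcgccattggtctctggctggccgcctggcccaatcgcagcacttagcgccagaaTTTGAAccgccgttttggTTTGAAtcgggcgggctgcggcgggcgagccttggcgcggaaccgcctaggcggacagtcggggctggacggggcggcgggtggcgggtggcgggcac
Top2a promoter, chr11:99024190-99024439: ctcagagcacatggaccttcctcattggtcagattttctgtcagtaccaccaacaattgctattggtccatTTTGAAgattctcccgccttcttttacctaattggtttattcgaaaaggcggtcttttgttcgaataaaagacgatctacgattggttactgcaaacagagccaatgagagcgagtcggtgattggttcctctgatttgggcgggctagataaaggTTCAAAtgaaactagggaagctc
The letters TTTGAA occur on either strand at -116 and -98 before Mki67 and at -179 and -23 before Top2a, and in 16.0% of all 32851 promoters of this length. The CCAAT letters occur 3 times before Mki67 and 6 times before Top2a, and in 33.8% of promoters. They do not overlap the capitals. The letters GCGGGA of the E2F core occur before Top2a at -168, not in this window of Mki67, and on either strand in 16.9% of promoters. A match of letters is not a measured binding site.

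The additional Mki67 UMIs in culture were mostly unspliced. Of 876 Mki67 UMIs in cultured hepatocyte nuclei, 31.7% were spliced (28.7% to 34.9%) and 62.7% unspliced, whereas 79.4% of 102 UMIs in L (70.3% to 86.8%) and 73.0% of 74 in CS (61.4% to 82.6%) were spliced. In samples with at least 10 such UMIs the spliced share was 27.5% to 43.8% in PH (8 samples), 50.0% to 100% in L (6 samples) and 45.5% to 77.8% in CS (3 samples). PH lay below L in every such sample. With spliced UMIs alone, PH over L was 1.31, and with unspliced UMIs alone 4.55 (log2). For the other genes the shares moved less between sample types, from 72.5% to 79.0% spliced for Ccnd1 and 37.9% to 36.6% for Ccne2 between L and PH. Over all genes and nuclei, 21.9% of UMIs were spliced and 69.4% unspliced. Mki67 spans 26578 bases and an unspliced UMI can also come from Gm45240, annotated on the opposite strand.

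**Figure D2:**
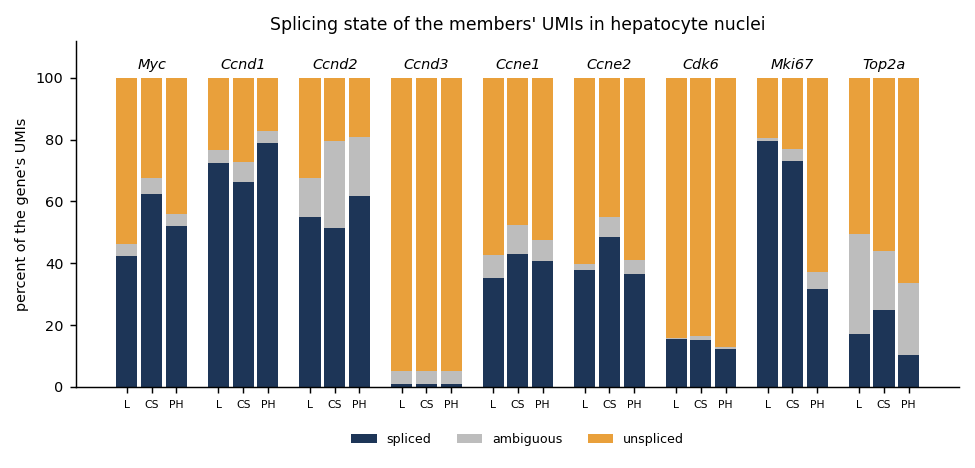
Share of each gene's UMIs that were spliced, ambiguous or unspliced in hepatocyte nuclei, in percent, by sample type, summed over 8 samples. The spliced share of Mki67 is 79.4% in L, 73.0% in CS and 31.7% in PH, while Ccnd3 is almost wholly unspliced in each sample type.

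Other RNAs of G2 and mitosis were at similar sums in cultured hepatocyte nuclei with and without Mki67 RNA. In the 165 cultured hepatocyte nuclei with 2 or more Mki67 UMIs, from all 8 samples, 49 other genes of G2 and M phase summed to 653 CPM, against 631 CPM in the 14206 nuclei without Mki67. Top2a was detected in 2 of these 165 nuclei (1.21%) and in 1.10% of those without Mki67, at median depths of 9089 and 6370 UMIs. The sum of 45 S phase genes did differ in culture. It was 721 CPM without Mki67, 871 CPM with 1 Mki67 UMI and 917 CPM with 2 or more. In hepatocyte nuclei of L these sums were 437, 446 and 924 CPM, and in those of CS 339, 377 and 3270 CPM. In Kupffer cell nuclei of Liver with 2 or more Mki67 UMIs, 10 in number, the same genes summed to 7591 CPM and 70.0% had Top2a, against 589 CPM and 1.46% of those without Mki67. The 6 such endothelial nuclei of Liver stood at 11997 CPM, all with Top2a, and the 10 leukocyte nuclei at 8298 CPM with 70.0%. Hepatocyte nuclei with 2 or more Mki67 UMIs were also found before culture, 7 in L at 2177 CPM (42.9% with Top2a) and 6 in CS at 6648 CPM (all with Top2a). Hepatocyte nuclei with 1 Mki67 UMI lay near those without it in each sample type. They were at 531 CPM for 86 in L, 505 CPM for 42 in CS and 605 CPM for 462 in PH. Hepatocyte nuclei without Mki67 had 580, 524 and 631 CPM. In endothelial, Kupffer and leukocyte nuclei of L, those with 1 UMI stood higher, at 3369, 1107 and 3683 CPM. Those without Mki67 had 522, 589 and 681 CPM. Most hepatocyte nuclei with Mki67 held 1 UMI in all 3 sample types. These nuclei were grouped by Mki67 itself, so the values are a description. The 49 genes are not equal in weight, and Hjurp alone stood at a median of 296 CPM in hepatocyte nuclei of L and 61.9 CPM in those of PH.

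**Figure D3:**
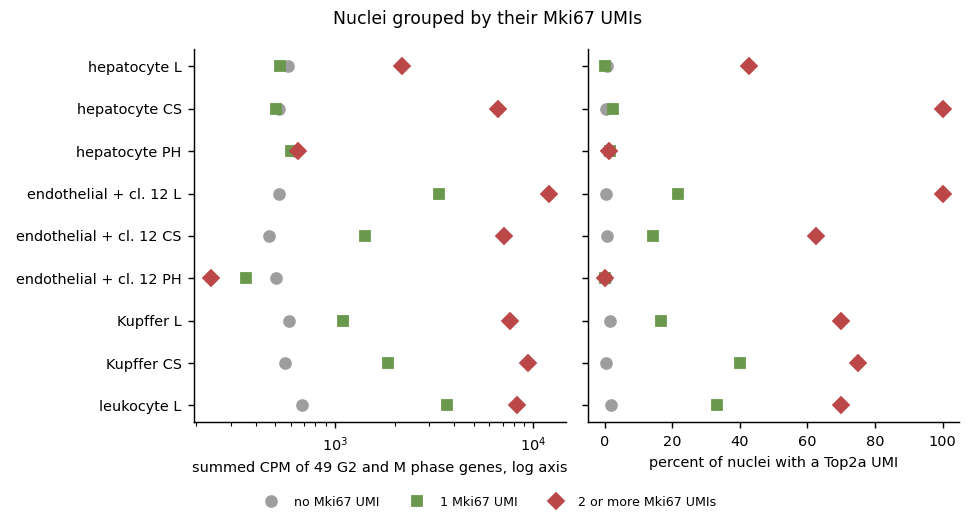
Nuclei divided by their number of Mki67 UMIs, by class and sample type. Left, summed CPM of 49 G2 and M phase genes on a log axis; right, percent of nuclei with a Top2a UMI; nuclei are pooled over samples. Nuclei with 2 or more Mki67 UMIs (diamonds) lie at 2177 CPM or more outside culture, and at 653 and 239 CPM in cultured hepatocyte and endothelial nuclei. The value of 653 CPM rests on 1104 UMIs in 165 nuclei, and that of 239 CPM on only 5 UMIs in 7 nuclei.

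Mki67 RNA was enriched in 1 group of cultured nuclei, although most Mki67 UMIs lay outside it. Clusters 0 and 1 held 40.2% and 39.4% of cultured hepatocyte nuclei and 22.8% and 34.2% of their Mki67 UMIs. Cluster 14 held 11.3% of cultured hepatocyte nuclei and 39.2% of their Mki67 UMIs. Its Mki67 level was 18.2 to 43.9 CPM of all UMIs over samples, against 2.42 to 8.02 in cluster 0, 3.16 to 12.4 in cluster 1 and 0 to 9.12 in cluster 17. Ccne2 was also unequal, at a median of 35.8 CPM in cluster 14 and 37.8 in cluster 17 against 11.5 in cluster 0. Top2a had its highest median, 3.71 CPM, in cluster 14 too (0.894 to 12 over samples), against 1.2, 1.48 and 1.28 in clusters 0, 1 and 17, whereas the median of Ccnd1 was 2.15 to 3.97 CPM over the 4 clusters. The clusters were made from all genes, these included, so these differences carry no test.

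Endothelial nuclei numbered 2472 in L, 1126 in CS and 76 in PH. In culture the comparison rests on cluster 12, with 1733 cultured nuclei, whose depth (a median of 1355 UMIs) is too low for a name by the rule used here. From its own reclustering of the cultured nuclei, the study named a population of dedifferentiated endothelial cells, but the cell type column used here does not give that name to cluster 12. Cluster 12 carries endothelial markers at 5151 to 7885 CPM and hepatocyte markers at 1565 to 5157 CPM in cultured samples, against endothelial markers at 12239 to 16333 CPM in endothelial nuclei of L. Hepatocyte markers stood at 2063 to 4419 CPM in endothelial nuclei of L and 1951 to 7381 CPM in those of CS. In cultured hepatocyte nuclei they stood at 2339 to 6758 CPM. The part of hepatocyte RNA in the endothelial values was not tested. Endothelial nuclei and cluster 12 were summed, and these sums held 95289 to 2578536 UMIs. Of the 9 genes, 4 were higher and 3 lower for PH over L (15.4% and 18.4% of 18279 genes), 3 higher and 3 lower for PH over CS (9.33% and 10.7%), and none was called for CS over L (3.90% of genes in either direction). The PH samples did not overlap with L for 3 genes, as for 8.65% of genes, nor with CS for 2 genes, as for 3.21%. Between CS and L there, edgeR gave 4 of 9 genes an unadjusted p under 0.05, as it did 3003 of all 18279 genes. DESeq2 called 3 of the 9 genes (778 of all genes). With the mouse as a block 2 were called, Myc and Mki67 (686 of all genes). By total UMIs alone the genes called for PH over L were 3429 higher and 2719 lower, in place of 2817 and 3364 (3533 and 2662 with RLE scaling), and for PH over CS 2600 and 1474, in place of 1706 and 1950.

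Myc rose here as in hepatocyte nuclei, from 0 to 12.4 CPM in L (median 1.30) and 0 to 30.9 in CS (median 11) to 26.9 to 83.7 in PH (median 51.4). All cultured samples lay above all L samples but overlapped with CS. As mean CPM of all UMIs, Myc was at 48.2 in cluster 12 and 137 in cultured hepatocyte nuclei. The part of hepatocyte RNA in this rise was not tested. The log2 fold change for PH over L was 3.85 (SE 0.42, edgeR adjusted p 3.97e-10), and for CS over L 1.83 (SE 0.58, edgeR adjusted p 0.0622), which passed with the mouse as a block (1.92), DESeq2 (2.13), the annotation that fits the sample type (1.87), no filter (1.82), unspliced UMIs alone (3.07) or without mouse 5 (2.89). The CS over L values rest on 28 Myc UMIs in L, 20 of them from mouse 5, and 28 in CS. Unspliced were 4 of those in L and 12 of those in CS. Ccnd3 rose from 51.8 to 107 CPM in L (median 80.4) to 168 to 486 CPM in PH (median 282), with no overlap, by 1.99 (SE 0.20, edgeR adjusted p 3.87e-11). That change was in unspliced UMIs: 1258 UMIs in PH were 95.9% unspliced. Spliced UMIs alone gave -0.89, which did not pass and rests on 16 spliced UMIs in L and 5 in PH. Cdk6 rose by 0.95 (SE 0.15, edgeR adjusted p 2.97e-06), with 82.6 to 132 CPM in L and 161 to 313 CPM in PH, and the difference was 0.27 with spliced UMIs alone, which did not pass.

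Ccnd1, Ccnd2 and Top2a were lower in cultured endothelial and cluster 12 nuclei. Ccnd1 was at 6.71 to 27.7 CPM in L (median 15.5), 7.03 to 37.6 in CS (median 21.2) and 0 to 15.2 in PH (median 4.53), lower in 8 of 8 mice than in L, and fell by 1.65 (SE 0.41, edgeR adjusted p 1.42e-03), a call lost at equal depth (-0.99) and with unspliced UMIs alone (-1.84). In culture Ccnd1 rested on 16 UMIs there, 3 of them unspliced. Ccnd2 was at 45.3 to 81.3 CPM in L (median 62.0), 28.1 to 106 in CS (median 87.4) and 22.5 to 65.4 in PH (median 33.1), and fell by 0.67 (SE 0.20, edgeR adjusted p 9.04e-03), a call lost with spliced UMIs alone (-0.22) and at equal depth (-0.71). Top2a fell by 2.34 (SE 0.79, edgeR adjusted p 0.0184), from 0 to 20.6 CPM in L to 0 to 7.61 CPM in PH. In culture this is 5 Top2a UMIs in all, and with the pool as covariate the difference was -0.75, at equal depth -0.57, with spliced UMIs alone -1.76, with DESeq2 -2.10 and without mouse 8 -2.0, none of which passed. Mki67 rose by 1.40 (SE 0.47, edgeR adjusted p 0.0190), from 1.55 to 13.0 CPM in L (median 4.55) to 0 to 18.2 CPM in PH (median 13.6), which was lost with the pool as covariate (1.67), at equal depth (1.74), without mouse 3 or 5 (1.23 and 1.19) and with spliced UMIs alone (0.11). Of 44 cultured nuclei with a Mki67 UMI, 0 held a Top2a UMI, which allows a share with a Top2a UMI of up to 6.82% and sets no limit on nuclei expressing Top2a. Ccne2 was 0.04 (SE 0.39) and Ccne1 rested on 12 UMIs. Mki67 in CS over L was at 1.51 (edgeR adjusted p 0.103) and passed with the mouse as a block (1.59), with DESeq2 (1.77) and without mouse 6 (1.80). These values rest on 42 Mki67 UMIs in L and 33 in CS.

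**Figure D4:**
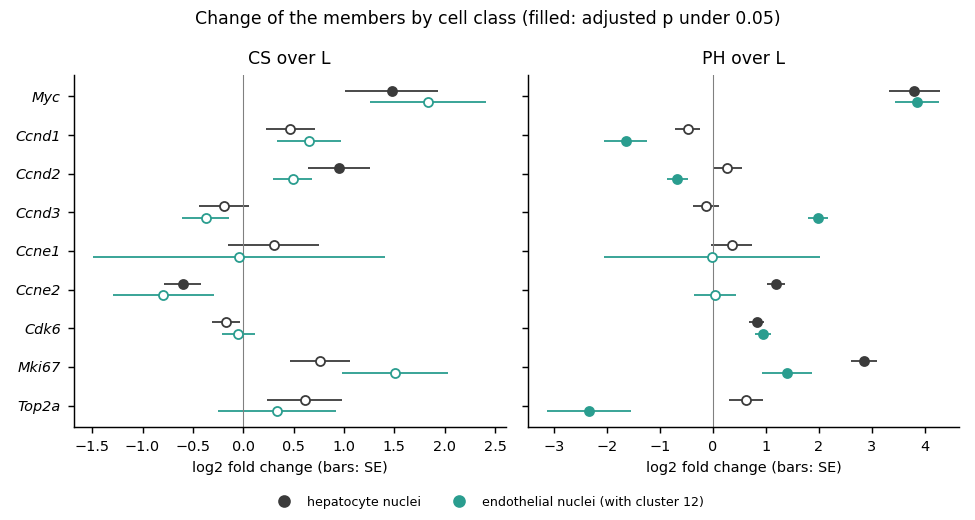
Log2 fold change of each gene in hepatocyte nuclei and in endothelial nuclei (cluster 12 included), for CS over L (left) and PH over L (right), with SE as bars and filled points where the edgeR adjusted p was under 0.05. In culture Myc and Cdk6 rise by like amounts in both classes (3.80 and 3.85, 0.83 and 0.95), and the 5 genes whose changes differed by the test, Ccnd3, Top2a, Mki67, Ccne2 and Ccnd2, lie apart.

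The difference between the classes' changes was tested itself, as endothelial minus hepatocyte log2 change within samples. For PH over L, 1 of 9 genes was higher and 4 lower in endothelial nuclei (14.5% and 11.3% of 26796 genes). Ccnd3 was higher by 1.99 (SE 0.20) in endothelial nuclei, with an edgeR adjusted p of 2.89e-15. Lower were Top2a by -2.87 (SE 0.72, edgeR adjusted p 8.72e-04), Mki67 by -1.39 (SE 0.46, 0.0158), Ccne2 by -1.11 (SE 0.37, 0.0165) and Ccnd2 by -0.94 (SE 0.33, 0.0226). Ccnd1 was at -1.13 (SE 0.45, edgeR adjusted p 0.0512) and passed with RLE scaling (-1.22), total UMIs alone (-1.57), no filter (-1.26), spliced UMIs alone (-1.40), the annotation that fits the sample type (-1.29) and without mouse 1, 2, 3, 6 or 8 (-1.46 to -1.25). Myc differed by 0.11 (SE 0.36) and Cdk6 by 0.18 (SE 0.18), which did not pass the test and turned to -0.36 and -0.24 by total UMIs alone. That scaling called 2335 genes higher and 5134 lower, in place of 3889 and 3033. At equal depth within each class (2065229 UMIs in hepatocyte sums and 95289 in endothelial sums) Ccnd3 alone of these 5 was called. Depth was thus not equal between the classes compared. With spliced UMIs alone 0 of the 5 were called, and with DESeq2 the calls of Mki67 and Ccne2 were lost. Ccnd2 and Ccne2 were lost with the annotation that fits the sample type (-0.77 and -0.93), Ccnd2 with unspliced UMIs alone (-1.13) and Ccne2 without mouse 5 (-0.98). For CS over L no member was called (2.80% of genes), with 1 at an unadjusted edgeR p under 0.05 and 0 adjusted by DESeq2.

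Kupffer cell nuclei, the resident macrophages, were compared between CS (342 nuclei) and L (919 nuclei) only. Mki67 was at 10.0 to 74.5 CPM in L (median 13.3) and 0 to 125 CPM in CS (median 43.9), higher in 6 of 8 mice, and Top2a at 2.50 to 62.1 and 0 to 133 CPM. The groups overlap for all 8 genes tested, Ccne1 falling under the count minimum. None was called (1.30% of 13819 genes), with 3 at an unadjusted edgeR p under 0.05 and 0 adjusted by DESeq2. Mki67 had a log2 difference of 1.65 (SE 0.47, edgeR adjusted p 0.0719), which passed without a filter (1.60) and with spliced UMIs alone (1.67), and Myc of 2.00 (SE 0.62, adjusted p 0.114). In L and CS these values rest on 46 and 46 UMIs of Mki67, 13 and 16 of Myc and 45 and 34 of Top2a. In 342 CS nuclei, 89.1% of the Mki67 UMIs lay in the 8 nuclei with 2 or more.

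Ccnd2 and Ccnd3 were unequal between classes of nuclei. As mean CPM of all UMIs over samples, Ccnd3 was highest in leukocyte nuclei of L (1332), followed by cluster 12 in culture (393) and stellate cell nuclei in culture (364). Ccnd2 was at 0.553 in hepatocyte nuclei of L and at 60.4 in endothelial, 48.2 in stellate and 133 in leukocyte nuclei of L. In stellate nuclei, the vitamin A-storing cells of the liver, it stood at 48.2 in L, 121 in CS and 343 in PH, with 880, 148 and 192 nuclei. In Liver, Mki67 and Top2a were highest in leukocyte nuclei (43.8 and 37.0) and next in Kupffer nuclei (25.2 and 21.8), which stood at 60.1 and 51.9 in CS. No test was fixed for these classes.

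**Figure D5:**
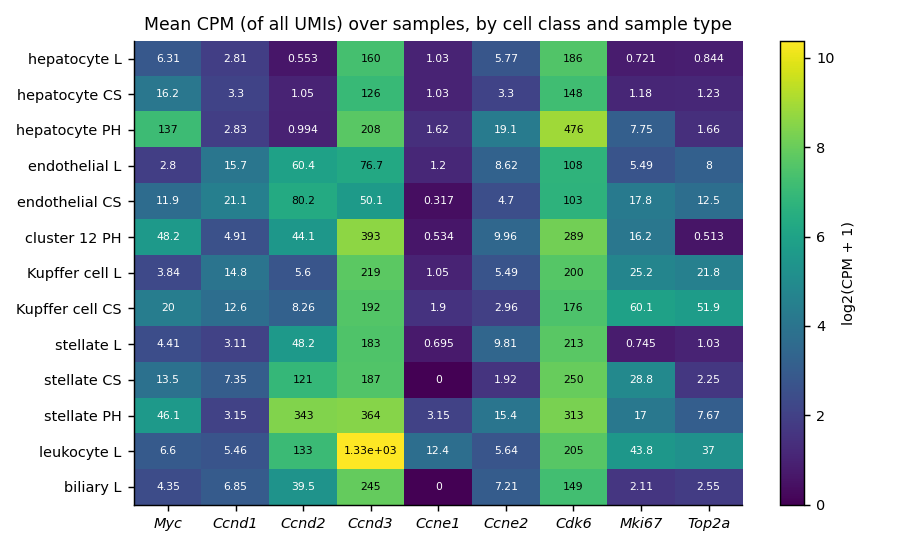
Mean CPM of all UMIs over samples (printed in each cell, color log2(CPM + 1)) for each gene (columns) in each class of nuclei and sample type (rows) with at least 100 nuclei, cluster 8 left out. Ccnd3 peaks in leukocyte nuclei at 1332 CPM, Myc in cultured hepatocyte nuclei at 137 CPM, and Ccnd2 in cultured stellate nuclei at 343 CPM.

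Partner genes of the 9 were taken from lists chosen with earlier results of these data known, and none of the lists contains a member. In cultured hepatocyte nuclei, relative to L, 27 of 45 S phase genes rose and 8 fell, with a median log2 change of 0.67, against 0.04 over all genes, of which 27.4% were called higher and 26.7% lower. These shares are the background of each list below for PH over L in hepatocyte nuclei. Mcm6, of the replicative helicase, went from 1.73 to 3.90 CPM in L to 27.3 to 34.7 CPM in PH (3.30, SE 0.14), and Chaf1b, a histone chaperone of replication, rose by 2.73 and Hells, a chromatin remodeler, by 2.49. E2f8, a repressor of E2F targets, fell by 5.00 (SE 0.74) from 4.51 to 194 CPM in L to 0.643 to 2.05 CPM in PH, and the helicase genes Blm and Brip1 fell by 1.94 and 0.98. With spliced UMIs alone Brip1 was at -0.10 and did not pass. Of 49 genes of G2 and M phase, 17 rose and 8 fell (median 0.32, against the same 27.4% and 26.7% of all genes). Ccnb2, a mitotic cyclin, rose by 1.83, the condensin gene Ncapd2 by 1.02 and Tmpo, of the nuclear lamina, by 0.51, whereas the centromere genes Hjurp and Cenpa fell by 2.20 and 1.84 and the chromatin gene Hmgb2 by 0.77. The adjusted p of each of these genes was at most 1.11e-04 (edgeR).

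Among regulators, Cdkn1a, which encodes the CDK inhibitor p21, had the largest change of the genes named here. It was at 0.241 to 2.76 CPM in L, 0.508 to 8.42 in CS and 72.9 to 119 in PH, with no overlap between PH and the rest. The log2 fold change was 6.26 (SE 0.35, edgeR adjusted p 1.43e-15), and in endothelial and cluster 12 nuclei it was 3.97 (edgeR adjusted p 3.87e-15). Of the 7 CDK inhibitors, 2 rose and 1 fell (median 0.41), which is near the 27.4% and 26.7% of all genes. Of 12 RB and E2F genes 6 rose and 3 fell (median 0.40). The retinoblastoma relative Rbl1 rose by 1.30, E2f6 by 0.74 and E2f4 by 0.71, while Rbl2 fell by 1.52 and Tfdp2, a dimer partner of E2F, by 2.39. Of 11 G1 kinase genes and partners tested, 4 rose and 2 fell (median 0.03). The kinase chaperone gene Cdc37 rose by 1.07, the phosphatase gene Cdc25a by 0.90 and Fbxw7, which marks cyclin E and MYC for degradation, by 0.59, while Cdk2 fell by 0.67 and Ccnh, of the CDK-activating kinase, by 0.29. The call of Ccnh (edgeR adjusted p 0.0128) was lost without mouse 2 or 4, with DESeq2, RLE scaling, spliced or unspliced UMIs alone and at equal depth (-0.25 to -0.02), and by total UMIs alone Ccnh passed the test in the other direction (0.24). The call of Cdk2 was lost by total UMIs alone (-0.12) and with unspliced UMIs alone (-0.57). With unspliced UMIs alone Fbxw7 was at -0.22 and Hmgb2 at 0.39, and by total UMIs alone Hmgb2 was at -0.24, none of which passed.

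Of 12 genes of the MYC network, 5 rose and 4 fell (median 0.17). Mnt, Mxi1 and Mga, which encode antagonists of MYC, rose by 1.33, 1.15 and 1.08, whereas Mxd4, an antagonist of the same family as Mxi1, fell by 1.00 and Mlx, a dimer partner in the network, by 1.17. Of 20 ribosome-making genes known as MYC targets, 19 rose and 1 fell, with a median of 1.39. Nop56, of the small nucleolar particles, went from 8.37 to 22.3 CPM in L, through 13.5 to 38.2 in CS, to 86.7 to 144 CPM in PH (2.90, SE 0.19). Npm1 and Ncl, major nucleolar proteins, rose by 2.69 and 2.35, and Rcl1, of ribosomal RNA processing, fell by 2.12. For CS over L, 12 of these 20 rose (median 0.48 against 0.01 over all genes, of which 7.69% were called higher and 13.8% lower) and 0 fell, with 1 lower at an unadjusted edgeR p under 0.05 and 0 by DESeq2. In endothelial and cluster 12 nuclei, for PH over L, 12 of 20 ribosome-making genes rose (median 1.07), 8 of 44 S phase genes rose and 7 fell (median -0.05), and 3 of 46 genes of G2 and M phase rose and 6 fell (median -0.55), against a median of -0.01 and calls of 15.4% higher and 18.4% lower over all genes. The S phase counts are near those shares. With DESeq2 the counts were 9 higher and 3 lower for the S phase genes and 5 higher and 3 lower for those of G2 and M phase. Over all 18279 genes DESeq2 called 3285 higher and 2476 lower.

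The genes most like Myc, Ccnd1 and Mki67 in level were found over 16 means of class and sample type, on log2(CPM + 1), among 24906 genes. For Myc they were Nrg4, Fbxo22 and Gclc (Pearson correlations of 0.975, 0.967 and 0.961), for Ccnd1 Msr1, Dysf and Gatm (0.920, 0.868 and 0.865), and for Mki67 Prr7, Tpx2 and Ndc80 (0.917, 0.904 and 0.884). The means share mice and pools across classes, and the sums of small classes are shallow.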

How the data were processed

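Nuclei of 24 samples from 8 mice were hashtagged and mixed in 6 pools, and 3′ droplet libraries (10x Genomics) were made of each pool. The authors converted reads with bcl2fastq 2.19.0, counted them with Salmon Alevin and Alevin-fry against spliced and unspliced transcripts of GRCm38, assigned nuclei to samples by hashtag and removed doublets with scDblFinder before deposit. The deposited matrices hold raw counts, 3 for each gene in each barcode (UMIs that were spliced, unspliced or ambiguous), which were added here. The authors' table of nuclei gave the sample, cluster and cell type of each nucleus, and its nuclei were used without a further filter. A hashtag named CD2 with the group CS was read as CS of mouse 2. The 9 genes and all lists were chosen with earlier results of these data known.

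Cultured clusters carry a single label for cultured cells in the deposited cell type column (the study names types among them from a reclustering not used here). A cluster was named endothelial or stellate where that marker list scored highest and passed a set ratio to its median over clusters. Any other cultured cluster was named hepatocyte by default, with no level of hepatocyte markers required. These markers summed to 3717, 4787, 3253 and 5761 CPM in clusters 0, 1, 14 and 17, and to 3472 CPM in cluster 12. A cluster stayed unnamed where its median depth was under the median of its own samples divided by 3 and no marker was among its top 10 genes. UMIs were summed per sample and class, and classes with at least 10 nuclei in a sample and genes of at least 10 counts were fitted with edgeR 4.0.16 (TMM, glmQLFit, glmQLFTest) in R 4.3.3 with sample type as the only term, adjusted over all genes with a threshold of 0.05. The difference between cell classes was fitted with each sample as a block. SE are the log2 fold change divided by the root of the F statistic. Alternatives were DESeq2 1.42.0, RLE scaling, total UMIs alone, other filters, the mouse as a block, the pool, spliced or unspliced UMIs, equal depth, nuclei of at least 1000 UMIs, annotation fitting the sample type, cluster 8 and leaving out each mouse. For equal depth, sums were thinned to the lowest total of their own class, so the depth differs between classes. Shares of positive nuclei are the expected shares after thinning to 1000 UMIs, which left out 508, 474 and 83 hepatocyte nuclei of L, CS and PH. Beside the 9 genes, up to 3 rising and 3 falling called genes per list of at least 5 mean CPM are named, and the 3 genes most like Myc, Ccnd1 and Mki67. The tests were run on simulated data with these depths, with changes placed only in genes of higher counts. That covered PH over L in hepatocyte and endothelial nuclei and CS over L in Kupffer nuclei. Calls on few UMIs and the difference between cell classes were not covered. Same-numbered samples come from the same mouse, and over 3862 genes their deviations from the type means correlated with a median of 0.752 between CS and L (above 0.1 in 8 of 8 mice), 0.05 between PH and L and 0.03 between PH and CS. Python 3.11.15, numpy 2.4.6, pandas 2.3.3, scipy 1.17.1 and matplotlib 3.10.9 were used. Hashtag counts, bulk RNA and proteins were not used here.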

Additional observations from a re-analysis of the deposited data

Results flagged for a closer look

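In 12 of 70 groups of 8 samples a single mouse stood apart from the other 7, where chance gives about 1 in 20 for normally distributed values. Several of these groups rest on few UMIs with many samples at 0, to which that rate does not apply. In hepatocyte nuclei, mouse 2 stood apart for Ccnd3 at 370 CPM in Liver and 351 CPM in Cell Suspension, for Ccne1 at 3.32 CPM in Liver and 1.64 CPM in culture, and for Top2a at 2.31 CPM in Liver (16 UMIs). Mouse 7 stood apart for Top2a at 4.16 CPM in Cell Suspension, on 8 UMIs. In endothelial and cluster 12 nuclei this held for Ccnd2 of mouse 3 in Cell Suspension (28.1 CPM, 4 UMIs), Ccnd3 of mouse 2 in Cell Suspension (136 CPM, 47 UMIs), Ccne1 of mouse 2 in culture (7.61 CPM, 1 UMI), Ccne2 of mouse 8 in Cell Suspension (23 CPM, 5 UMIs) and Myc of mouse 5 in Liver (12.4 CPM, 20 UMIs). In Kupffer cell nuclei it held for Ccnd1 of mouse 6 in Liver (37.3 CPM, 3 UMIs).

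The change between Liver and culture differed between endothelial and hepatocyte nuclei for 5 genes by edgeR's test of the difference, as endothelial minus hepatocyte log2 change. It was 1.99 for Ccnd3, -2.87 for Top2a, -1.39 for Mki67, -1.11 for Ccne2 and -0.94 for Ccnd2. Cluster 12 supplied most of the cultured endothelial sums, and its part in these differences was not tested.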

How the results depend on the processing

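Of the values of single genes that passed the edgeR test and were fitted again under an alternative, 1194 kept direction and call, 68 lost the call and 7 turned, and of those that did not pass, 898 stayed so and 41 passed. With spliced UMIs alone, Ccnd3 turned to -0.89 for PH over L and -1.26 for PH over CS in endothelial nuclei, and to -1.13 in the difference between classes. None of these passed, and they rest on 16, 9 and 5 spliced endothelial UMIs in L, CS and PH. With unspliced UMIs alone, Ccnd1 turned to 0.075 for PH over CS in endothelial nuclei, on only 2 unspliced UMIs in CS and 3 in PH. Fbxw7 turned to -0.22 and Hmgb2 to 0.39 in hepatocyte nuclei with unspliced UMIs alone. None of these passed. By total UMIs alone Ccnh turned to 0.24. That scaling and the addition of cluster 8 to the hepatocytes were chosen after seeing the data. With cluster 8, 4, 5 and 3 members were called in hepatocyte nuclei for PH over L, PH over CS and CS over L. These are the same numbers as without it, for which the shares of all genes are given above. The cause of these changes was not tested.

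Larger moves in the numbers of members called were as follows, and smaller moves are mostly left out. By total UMIs alone, Ccnd2 and Top2a were also called higher in hepatocyte nuclei for PH over L, beside Myc, Mki67, Ccne2 and Cdk6. That scaling called 12161 of 26521 genes higher there. In hepatocyte nuclei, CS over L went from 3 to 1 with unspliced UMIs and to between 1 and 3 when a mouse was left out, 1 of them without mouse 1, 3 or 4. In endothelial nuclei, PH over L went from 7 to 4 with the filterByExpr filter, 2 with spliced UMIs and 3 at equal depth, and PH over CS from 6 to 3 with spliced UMIs. For CS over L, 0 became 3 with DESeq2, 2 with the mouse as a block, 1 without a filter, with unspliced UMIs or with the annotation that fits the sample type, and 0 to 1 when a mouse was left out, 1 without mouse 5 or 6. The difference between classes went from 5 to 3 with DESeq2 and to 1 with spliced UMIs or at equal depth. In Kupffer nuclei 0 became 1, Mki67, without a filter or with spliced UMIs. Samples of the same mouse share a liver. With the mouse as replicate block, hepatocyte nuclei had 4, 6 and 4 members called for PH over L, PH over CS and CS over L, and endothelial nuclei 7, 6 and 2. Of all genes, 14369, 13662 and 6098 of 26521 were then called in hepatocyte nuclei. In endothelial nuclei 5569, 3327 and 686 of 18279 were called.

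Numbers of all genes called also depended on the setting. In hepatocyte nuclei CS over L went from 5698 to 3247 at equal depth. In endothelial nuclei PH over L went from 6181 to 3818 with filterByExpr, 3268 with the pool, 3421 with spliced UMIs and 2383 at equal depth, and PH over CS from 3656 to 1697 with spliced UMIs and 1877 at equal depth. CS over L there went from 712 to 334 with the pool, 325 with spliced UMIs, 251 at equal depth, 432 without mouse 1 and 469 without mouse 3. The difference between classes went from 6922 to 3525 with spliced UMIs and 2957 at equal depth for PH over L. For CS over L it went from 750 to 476 with DESeq2, 237 with spliced UMIs, 114 at equal depth and 448 by total UMIs alone. In Kupffer nuclei 180 became 300 without a filter, 86 with filterByExpr, 99 with the pool, 82 with spliced and 93 with unspliced UMIs, 53 at equal depth, and 77, 98 and 119 without mouse 1, 2 and 3. The expected share of hepatocyte nuclei with a Ccne2 UMI was 3.67 times as high in PH as in L at 1000 UMIs and 2.34 times without thinning, and with a Cdk6 UMI 1.98 and 1.14 times. Few UMIs limit Ccne1, Top2a and Mki67 outside hepatocyte nuclei.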
